A study of Mus musculus with 3 samples.

Results

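The immunoglobulin constant region genes, 10 in number, were followed through the B-lineage cells of inflamed mouse islets: the heavy chain genes Ighm, Ighd, Ighg1, Ighg2b, Ighg2c, Ighg3, Igha and Ighe and the light chain genes Igkc and Iglc2. They are 10 of the 32285 genes in the deposited tables. The study sorted live CD45+ cells from dispersed pancreatic islets of female, wild-type NOD mice aged 15 to 16 weeks and sequenced them with 10x Genomics 3' chemistry. There are 3 libraries (replicates 1, 2 and 3), each from the pooled islets of 2 to 3 mice, and 1 condition. NOD is an inbred strain that develops autoimmune diabetes, and no treatment is named for these mice. The 3 samples came from 2 independent experiments, and which sample belongs to which is not stated, so p-values measure the spread between these 3 pools only.

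Cells were placed in classes by their unique molecular identifiers (UMIs, each standing for 1 captured RNA molecule). Of 26947 cells, 4877 were B-lineage cells with at least 1000 UMIs, under 10% mitochondrial UMIs and no Cd3e UMI. IgD-positive B cells (3625) had at least 2 Cd79a UMIs, at most 2 Jchain UMIs and at least 1 Ighd UMI, and IgD-negative B cells (1146) met the same limits with no Ighd UMI. A plasma gate (106 cells) required at least 5 Jchain, 1 Mzb1 and 1 Xbp1 UMIs. T cells (15507), with at least 1 Cd3e and no Cd79a UMI, do not make antibody and served as the background level. The words positive and negative refer to RNA counted in a cell, not to protein on its surface, and Ighd itself separates the B cell classes, so its difference between them is no result.

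The constant region of an antibody sets what it does after binding. A naive B cell makes IgM and IgD together by splicing 1 long transcript. Class switch recombination then deletes the DNA between the variable region and a downstream constant gene, after which the cell makes an IgG subclass, IgA or IgE with the same specificity. Each cell also uses a kappa (Igkc) or a lambda (Iglc1, Iglc2, Iglc3) light chain. Plasma cells secrete antibody, and in them immunoglobulin RNA is among the most abundant RNA of the cell. J chain links IgM and IgA into polymers.

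The heavy chain genes lie in a row on the minus strand of chromosome 12 (GRCm38, the assembly also called mm10, with GENCODE M21 annotation), all annotated as IG_C_gene. From the side nearest the variable region they are Ighm (chr12:113418558-113422730), Ighd (chr12:113406604-113416324), Ighg3 (chr12:113356224-113361232), Ighg1 (chr12:113325240-113330523), Ighg2b (chr12:113302965-113307933), Ighg2c (chr12:113285325-113288932), Ighe (chr12:113269260-113273248) and Igha (chr12:113254830-113260236). Igkc lies on the plus strand of chromosome 6 (chr6:70726435-70726966) and Iglc2 on the minus strand of chromosome 16 (chr16:19198396-19200351).

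The IgG genes are related in sequence, and every statement on subclasses rests on telling them apart. Their last 60 coding bases before the stop codon of the secreted form, taken from GENCODE M21 transcripts, are shown with capitals where the 4 genes are not all alike (29 of the 60 positions).
Ighg1: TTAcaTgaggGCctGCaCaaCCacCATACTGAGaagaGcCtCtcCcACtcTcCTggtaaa
Ighg2b: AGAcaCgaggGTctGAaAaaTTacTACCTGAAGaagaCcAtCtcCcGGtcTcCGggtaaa
Ighg2c: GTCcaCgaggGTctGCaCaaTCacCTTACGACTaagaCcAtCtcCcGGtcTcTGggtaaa
Ighg3: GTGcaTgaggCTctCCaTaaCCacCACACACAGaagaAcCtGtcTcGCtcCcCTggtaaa
On the minus strand these stretches lie for Ighg1 at chr12:113328979-113329038, for Ighg2b at chr12:113306392-113306451, for Ighg2c at chr12:113287392-113287451 and for Ighg3 at chr12:113359668-113359727. Pairs differ at 14 (Ighg1 and Ighg3, Ighg2b and Ighg2c) to 22 (Ighg2b and Ighg3) of the 60 bases. No run of 90 bases in an annotated transcript of any of the 10 genes occurs in a transcript of another gene. Reads shorter than that or with errors may still be shared, and the mm10 reference is not of the NOD strain, so the split among IgG subclasses carries an uncertainty that was not tested.

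The secreted forms of Ighm and Igha end in a tailpiece that the IgG genes lack, shown here because J chain, which defines the plasma gate, bonds to the cysteine before the last residue (codon in capitals).
Ighm: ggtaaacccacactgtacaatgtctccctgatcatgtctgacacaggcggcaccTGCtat
Igha: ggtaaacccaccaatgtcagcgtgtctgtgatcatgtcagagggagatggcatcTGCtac
They lie at chr12:113420870-113420929 and chr12:113258771-113258830. UMIs per gene do not separate the secreted from the membrane form.

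Replicates 1, 2 and 3 hold 5844, 9537 and 11566 cells with a median of 4230, 6415 and 5521 UMIs per cell. The libraries share 12 to 29 cell barcodes per pair, of which at most 2 fall in the B-lineage classes. Those in the T cell class were not counted. The classes carried the markers of their names with 1 exception. Cd79b, a partner of the B cell receptor, stood at 320 to 735 CPM (UMIs of a gene, scaled to a class sum of 1000000) in both B cell classes and at 4.07 to 6.23 CPM in T cells, and the summed level of 8 T cell markers was 69.4 to 108.2 CPM in B cells against 2886 to 3769 CPM in T cells. Cd3e is among these 8 markers and is set by the gates, so part of that gap was fixed in advance. The plasma cell receptor gene Tnfrsf17 had no UMI in either B cell class and stood at 21.3 to 58.0 CPM in the plasma gate. The exception is the plasma gate itself, in which 67 of 106 cells had a UMI of the B cell gene Ms4a1 and 27 had one of Pax5, which plasma cells switch off. It is therefore called the plasma gate and not a population of plasma cells.

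**Figure D1:**
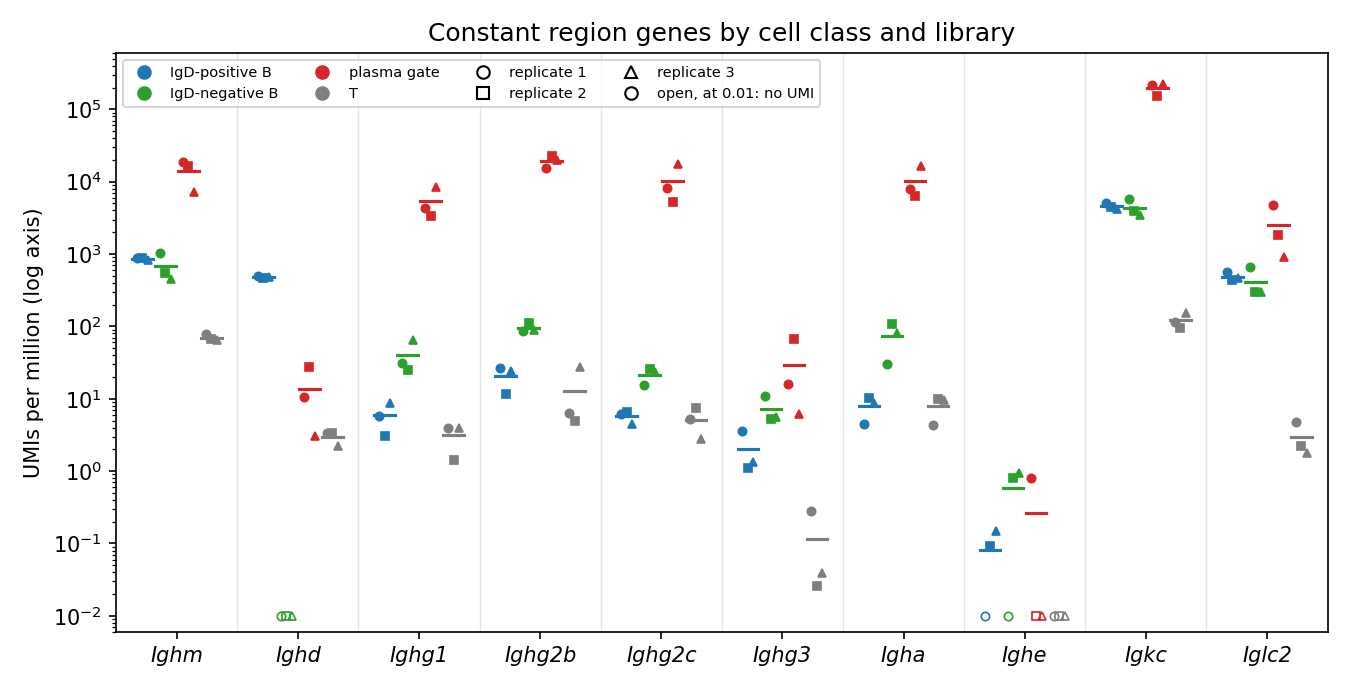
Level of each constant region gene in CPM (log axis) by cell class (colour) and library (symbol). Bars mark the mean of the 3 libraries and open symbols at 0.01 mark libraries without a UMI. Plasma gate cells sit highest for 8 of the 10 genes, Ighd is highest in the IgD-positive B cells that it defines, and Ighe stays under 1 CPM in every class.

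In IgD-positive B cells, IgM was the leading heavy chain RNA. Ighm stood at 890, 872 and 826 CPM in replicates 1, 2 and 3 (863 ± 33.1, SD, n = 3 libraries). Ighd stood at 505, 461 and 479 CPM, so the ratio of Ighm to Ighd UMIs was 1.76, 1.89 and 1.73. The gate requires at least 1 Ighd UMI in each of these cells, which raises the Ighd level and lowers this ratio. Both genes varied little between the pools. A UMI count from the 3' end is a count of molecules and is not scaled by gene length. These genes can thus be set side by side as RNA molecules, though only within the cells that this gate selects. Igkc was the highest of all at 5102, 4420 and 4173 CPM, and Iglc2 stood at 563, 433 and 468 CPM.

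Of the other heavy chain genes, Igha and Ighg2c were near the level of T cells in IgD-positive B cells. Igha stood at 4.52, 10.3 and 8.72 CPM in IgD-positive B cells and at 4.41, 9.96 and 9.53 CPM in the T cells of the same libraries. A UMI of Igha was found in 5.12% ± 2.52 of IgD-positive B cells and 5.02% ± 2.31 of T cells (SD, n = 3), and in 0.888% ± 0.445 and 0.863% ± 0.25 when each cell was thinned to 1000 UMIs. Ighg2c followed the same course, with UMIs in 3.23% ± 1.44 of IgD-positive B cells and 3.14% ± 1.79 of T cells. These shares were thus close to those of the T cells, and the source of the molecules was not tested. The median depth of the cells was 4213, 6829 and 5898 UMIs for IgD-positive B cells and 3987, 6238 and 5457 UMIs for T cells.

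Ighg3 differed from this pattern. It stood at 3.58, 1.11 and 1.33 CPM in IgD-positive B cells and at 0.280, 0.0255 and 0.0397 CPM in T cells, where 7 UMIs were counted among 15507 cells. Over all libraries the level was 27.2 times that of T cells (95% exact interval 12.1 to 71.5, which, like all intervals here, covers counting error only). Among the IgG genes and Igha, Ighg3 thus had the largest ratio of IgD-positive B cells to T cells, from the fewest UMIs.

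Sums per library and class were fitted with edgeR across 10705 genes with the library as a block. Of all genes tested, 24.8% were higher in IgD-positive B cells than in T cells. Ighd, fixed by the gate, and Ighe, under the count limit, were not tested. Of the other 8 members, Ighm, Ighg1, Ighg3, Igkc and Iglc2 were called higher and Ighg2b, Ighg2c and Igha were not called. Ighm was higher by 3.70 on the log2 scale (SE 0.23, edgeR adjusted p = 1.12e-08). Igkc and Iglc2 were higher by 5.31 and 7.61. Igha differed by 0.06 (SE 0.36, adjusted p = 0.91) and Ighg2c by 0.26 (SE 0.50, adjusted p = 0.69). Ighg2b differed by 0.87 (SE 0.43, adjusted p = 0.11), and without replicate 3 by 1.77 with a call. In replicate 3, 1 cell of the T cell gate held 965 of 1385 Ighg2b UMIs and 4055 of 7647 Igkc UMIs. Ighg1 was higher by 1.03 (SE 0.19, adjusted p = 0.0005), but with the narrower cell limits of the study the difference was -0.0023, and those of Ighg2c and Igha were then -0.02 and -0.08. Ighg1 was not called without the block by library either (adjusted p = 0.17). An Ighg1 UMI was found in 1.83, 1.22 and 3.00% of IgD-positive B cells and in 2.15, 1.04 and 2.58% of T cells. Without the 1 cell with most Ighg1 UMIs in each library, IgD-positive B cells stood at 3.60, 1.94 and 7.10 CPM. All T cells of the same libraries stood at 3.99, 1.43 and 3.91 CPM.

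IgD-negative B cells carried more RNA of IgA, IgG1 and IgG2b than IgD-positive B cells, while Ighm, kappa and lambda RNA did not pass the test with the filter on low counts. Igha, which encodes the heavy chain of mucosal IgA, stood at 30.1, 109 and 81.9 CPM in IgD-negative B cells (73.6 ± 39.9) against 7.83 ± 2.97 CPM in IgD-positive B cells. It was higher in all 3 libraries, by 3.15 on the log2 scale (SE 0.37, edgeR adjusted p = 0.00082). Ighg1 stood at 31.7, 24.9 and 64.1 CPM against 5.77, 3.05 and 8.87 CPM, higher by 2.76 (SE 0.19, edgeR adjusted p = 4.98e-06). Ighg2b stood at 87.7, 110 and 89.4 CPM against 26.5, 11.6 and 24.5 CPM, higher by 2.28 (SE 0.44, edgeR adjusted p = 0.029). For these 3 genes the lowest IgD-negative library lay above the highest IgD-positive library. Class switching deletes Ighd, so a gate on no Ighd UMI selects for switched cells. The higher levels of switched genes are thus in part built into the gate, and these p-values are no independent support.

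Among all genes tested, 0.579% were called, 0.523% higher and 0.056% lower in IgD-negative B cells, against 3 of 8 members higher and none lower. The gate on Ighd bears on the count of members as well, so it is a description. Ighg2c, at 15.5, 25.7 and 23.4 CPM against 6.23, 6.56 and 4.43 CPM, and Ighg3, at 10.8, 5.21 and 5.62 CPM against 3.58, 1.11 and 1.33 CPM, were also apart in every library but were not called (log2 differences of 1.86 and 1.92, SE 0.54 and 0.64, edgeR adjusted p = 0.22 and 0.32). Ighm stood at 1033, 551 and 449 CPM in IgD-negative B cells. Replicate 1 lay above and the other two below the IgD-positive level, and the difference of -0.45 (SE 0.21, adjusted p = 0.67) was not called. Igkc differed by -0.09 (SE 0.17) and Iglc2 by -0.40 (SE 0.26). Ighe was under the count limit of the fit. It had 2 UMIs in IgD-positive and 4 in IgD-negative B cells, each UMI in a cell of its own.

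These calls rested on the pairing of classes within a library and on single settings for some genes. Without the block by library the adjusted p was 0.074 for Ighg1 and 0.24 for Ighg2b, while Igha remained called at 0.034. Ighg2b was not called without replicate 2 (log2 difference 1.79, adjusted p = 0.26), and Igha was not called when cells with markers of a second cell type or over 30000 UMIs were left out (log2 difference 3.13, SE 1.15, adjusted p = 0.48) or when plasma gate cells with a Pax5 UMI were (3.16, adjusted p = 0.43). With the narrower cell limits of the study Ighg1 was not called (1.28, adjusted p = 1). With no filter on low counts 4 more members were called, Ighg2c and Ighg3 higher (adjusted p = 1.89e-21 and 0.0014) and Ighm and Iglc2 lower (-0.48 and -0.43, adjusted p = 0.00025 and 0.022).

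**Figure D2:**
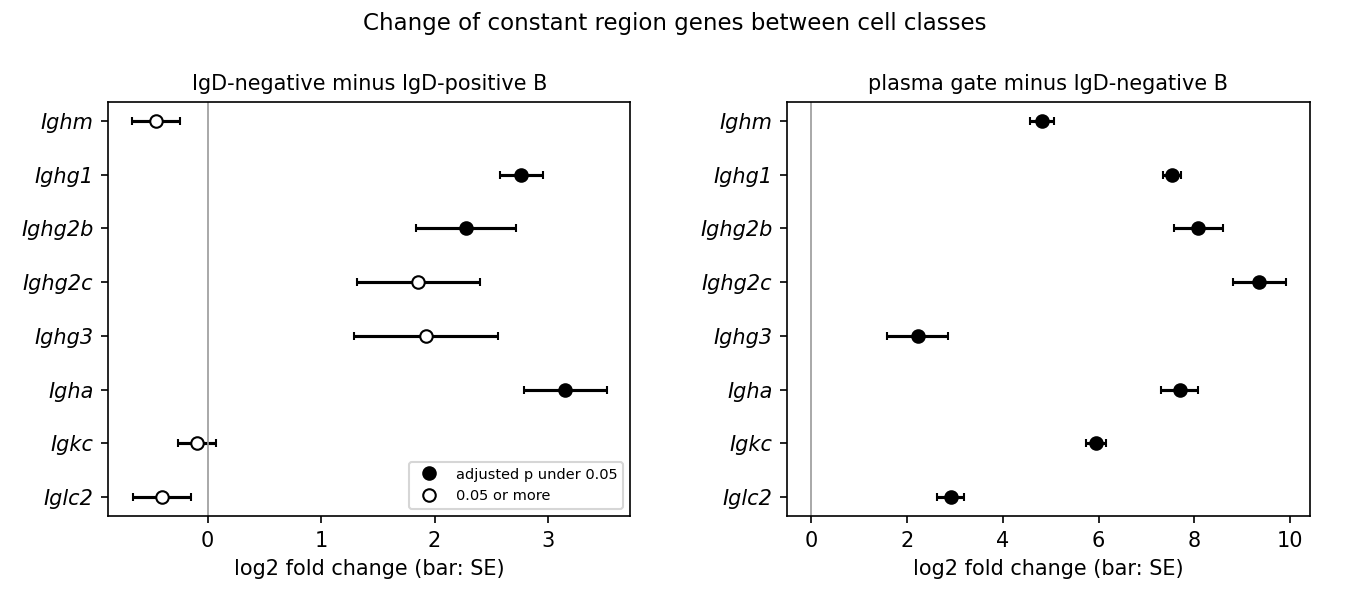
Log2 fold change of the tested constant region genes with its standard error (bars), for IgD-negative minus IgD-positive B cells (left) and plasma gate minus IgD-negative B cells (right), from 3 libraries. Filled points passed an adjusted p of 0.05. Igha, Ighg1 and Ighg2b are filled at 2.28 to 3.15 on the left, and all 8 genes are filled on the right.

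Plasma gate cells had more RNA of all 8 members tested against both B cell classes, and kappa RNA was the most abundant. Against IgD-negative B cells, the difference in Ighg3 rested on single cells, as given below. Constant region genes made up 29.0, 23.5 and 29.4% of all UMIs in the plasma gate, against 0.739, 0.641 and 0.621% in IgD-positive and 0.809, 0.526 and 0.469% in IgD-negative B cells and 0.0202 to 0.0266% in T cells. Igkc alone stood at 214032, 151760 and 220956 CPM. Next came Ighg2b at 15619, 22404 and 19751 CPM (19258 ± 3419), followed by Ighm at 18640, 16598 and 7160 CPM (14132 ± 6124). Igha (7849, 6338 and 16664 CPM), Ighg2c (8150, 5172 and 17504 CPM) and Ighg1 (4347, 3322 and 8550 CPM) overlapped each other in range. Iglc2 stood at 4777, 1832 and 924 CPM.

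Between Ighg1 and the next heavy chain gene there was a wide step down. Ighg3 stood at 16.04, 66.0 and 6.11 CPM in the plasma gate, Ighd at 10.4, 27.7 and 3.06 CPM, and Ighe had 1 UMI in 1 of 106 cells. The order of heavy chain genes by mean was Ighg2b, Ighm, Igha, Ighg2c, Ighg1, Ighg3, Ighd and Ighe, and the steps from Ighg1 to Ighg3 and from Ighd to Ighe were the ones without overlap of the libraries.

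Against IgD-negative B cells, all 8 members with a valid test were higher in the plasma gate, where 30.5% of all genes were called and 15.7% were higher. The log2 difference was 9.35 for Ighg2c (SE 0.55, edgeR adjusted p = 3.07e-08), 8.08 for Ighg2b (SE 0.52), 7.69 for Igha (SE 0.39) and 7.53 for Ighg1 (SE 0.19). It was smaller for Ighm, at 4.83 (SE 0.25, edgeR adjusted p = 1.09e-08), and for the light chains, at 5.94 for Igkc (SE 0.21) and 2.91 for Iglc2 (SE 0.27). The smallest was that of Ighg3, at 2.23 (SE 0.63, edgeR adjusted p = 0.016), which was not called without replicate 2 (0.90, adjusted p = 0.24). Ighd is set to 0 in the second group by its gate and was not tested.

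Against IgD-positive B cells the differences of the switched genes were larger. Ighg2c was higher by 11.21, Igha by 10.84, Ighg2b by 10.36 and Ighg1 by 10.30 on the log2 scale, and Ighm by 4.37. All 8 were called, with 18% of all genes called higher. Against T cells all 9 tested members were called higher, with 44.8% of all genes called and 22.5% higher, and Ighd was among them at 2.54 (SE 0.46, edgeR adjusted p = 0.00075). That last call rested on 28 UMIs in 16 plasma gate cells. Leaving out plasma gate cells with a Pax5 UMI, a choice made after seeing the data, ended it (1.47, adjusted p = 0.083).

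In the plasma gate a library's level of a gene can rest on 1 cell. In replicate 2, with 19 cells, 1 cell held 2971 of 2978 Igha UMIs and 1 held 1548 of 1561 Ighg1 UMIs. Without these the levels were 15.8 CPM for Igha and 29.5 CPM for Ighg1. In replicate 1, 1 cell held 4253 of 5956 Iglc2 UMIs, without which Iglc2 stood at 1394 CPM. For Ighg3, 1 cell led by Ighm held 15 of 20 UMIs in replicate 1. In replicate 2, 1 cell led by Ighg1 held 24 of 31. Without the top cell of each library, Ighg3 stood at 4.09, 15.9 and 3.18 CPM in the plasma gate. All IgD-negative B cells stood at 10.8, 5.21 and 5.62 CPM, so the plasma gate was then lower in replicates 1 and 3.

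The heavy chain gene with most UMIs was then called in each cell with at least 2 heavy chain UMIs. A call was possible in 3015 of 3625 IgD-positive B cells, 800 of 1146 IgD-negative B cells, all 106 plasma gate cells and 1489 of 15507 T cells. Among called IgD-positive B cells, 70.4, 73.5 and 64.4% were dominated by Ighm and 29.1, 26.1 and 34.7% by Ighd. Only 17 cells (12 Ighg2b and 5 Ighg1) were dominated by a switched gene, that is, one other than Ighm and Ighd.

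Among called IgD-negative B cells, 43 of 350, 65 of 255 and 48 of 195 were dominated by a switched gene, which is 12.3, 25.5 and 24.6% (20.8% ± 7.38, SD, n = 3). In the plasma gate 36 of 59, 8 of 19 and 23 of 28 cells were, or 61.0, 42.1 and 82.1% (61.8% ± 20.03). As a share of all cells, called or not, switched cells were 0.493% ± 0.201 of IgD-positive B cells, 14.1% ± 4.63 of IgD-negative B cells and 0.408% ± 0.154 of T cells. The share in IgD-positive B cells was thus close to that in T cells, whose calls came from few UMIs. The make-up was unlike, however. Switched calls in T cells were 41 Igha, 17 Ighg2b, 11 Ighg2c and 1 Ighg1, against 12 Ighg2b and 5 Ighg1 in IgD-positive B cells. The switched IgD-positive B cells had a median of 6, 25 and 17 heavy chain UMIs in replicates 1, 2 and 3. The order of the 3 B-lineage classes was the same in 3 of 3 libraries. The gate on Ighd bears on this call, since each IgD-positive B cell has an Ighd UMI, so the gap between the B cell classes is a description. With Ighd left out of the call the mean share was 0.697% in IgD-positive and 20.8% in IgD-negative B cells.

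**Figure D3:**
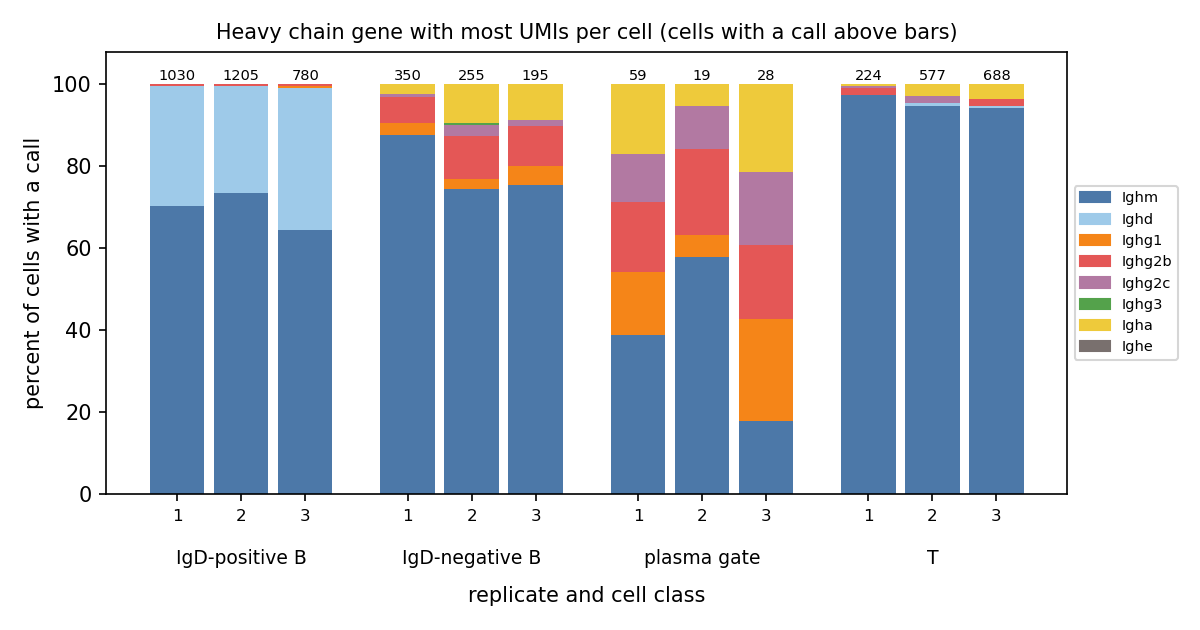
Share of cells by the heavy chain gene with most UMIs, for each class and library, with the number of called cells above each bar. Switched genes take 0.415 to 0.897% of IgD-positive B cells, 12.3 to 25.5% of IgD-negative B cells and 42.1 to 82.1% of the plasma gate.

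The switched cells of both classes were then divided by isotype. Of 156 switched IgD-negative B cells, 68 were dominated by Ighg2b, 49 by Igha, 25 by Ighg1, 13 by Ighg2c and 1 by Ighg3. Of 67 switched plasma gate cells, 19 were dominated by Ighg2b, 17 by Igha, 17 by Ighg1, 14 by Ighg2c and none by Ighg3. Ighg2c, the heavy chain of the IgG2c subclass, thus took 8.33% (95% exact interval 4.51 to 13.8) of the first and 20.9% (11.9 to 32.6) of the second. By library its share was 6.98, 10.8 and 6.25% in B cells and 19.4, 25.0 (2 of 8 cells) and 21.7% in the plasma gate, higher in 3 of 3. Ighg1 was also higher in 3 of 3, at 23.3, 9.23 and 18.8% in B cells against 25.0, 12.5 (1 of 8 cells) and 30.4% in the plasma gate. Ighg2b took 43.6% (35.7 to 51.8) and 28.4% (18.0 to 40.7), but by library 51.2, 41.5 and 39.6% against 27.8%, 4 of 8 cells and 21.7%, so its direction was not the same in replicate 2, which has 8 such plasma gate cells. The intervals of the classes overlapped for each of these genes. These shares came from 8 to 65 cells a library and were not tested. In plasma gate cells with at least 1% heavy chain UMIs, Ighg1 led 3 of 25, 1 of 7 and 4 of 16 switched cells. That limit was chosen after seeing the values. In replicate 1 this lay below the B cell share, so the 3 of 3 of Ighg1 rested on cells under the limit. Ighg2c led 6, 2 and 3 of them and stayed higher in each library.

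In all, 6254 genes were tested between IgD-negative B cells led by a switched gene and those led by Ighm. This comparison was chosen after seeing the data. Of these genes 1.97% were higher and 1.07% lower in the switched cells. Heavy chain genes, which define both groups, were not taken out of these counts.

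No B-lineage cell was dominated by Ighe, the heavy chain of IgE, in 3921 called cells, and 1 was dominated by Ighg3. In the plasma gate, none of 106 cells was dominated by Ighg3, Ighe or Ighd. A count of 0 allows up to 5.08, 15.8 and 10.7% of the cells of replicates 1, 2 and 3.

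Most cells of the plasma gate showed 1 heavy chain. In 89 of 106, the leading gene took at least 95% of heavy chain UMIs. All 17 cells led by Igha did, as did 18 of 19 led by Ighg2b and 28 of 39 led by Ighm.

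The share of a cell's RNA given to heavy chain spanned 3 orders of magnitude within the gate. It ran from 0.0142% to 30.8% of a cell's UMIs with a median of 5.24%, and 70 cells had at least 1% while 36 had less. This limit was chosen after seeing the values and the 2 sets are given as a description. Of the 36 cells under 1%, 25 had a Pax5 UMI, 35 an Ms4a1 UMI and 24 an Mki67 UMI (a marker of cycling cells), while 5 had a UMI of the plasma cell surface gene Sdc1. Of the 70 others, 2 had a Pax5 UMI, 32 an Ms4a1 UMI, 23 an Mki67 UMI and 51 an Sdc1 UMI.

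The isotypes were spread unevenly over these cells. In replicates 1, 2 and 3, switched genes led 25 of 42, 7 of 10 and 16 of 18 cells at or above 1%. Under 1% they led 11 of 17, 1 of 9 and 7 of 10. Among cells led by Ighg1, 8 of 17 had at least 1% heavy chain and the median was 0.313%. Among cells led by Igha 15 of 17 did, with a median of 7.70%, by Ighg2b 14 of 19 (12.0%), by Ighg2c 11 of 14 (6.07%) and by Ighm 22 of 39 (4.27%). Median Jchain UMIs per cell were 44 for Ighg1, 95 for Ighm, 332 for Ighg2b, 653 for Igha and 702 for Ighg2c, though at least 5 were required by the gate. Cells of 1 library share their mice and are not replicates, so no test was made.

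**Figure D4:**
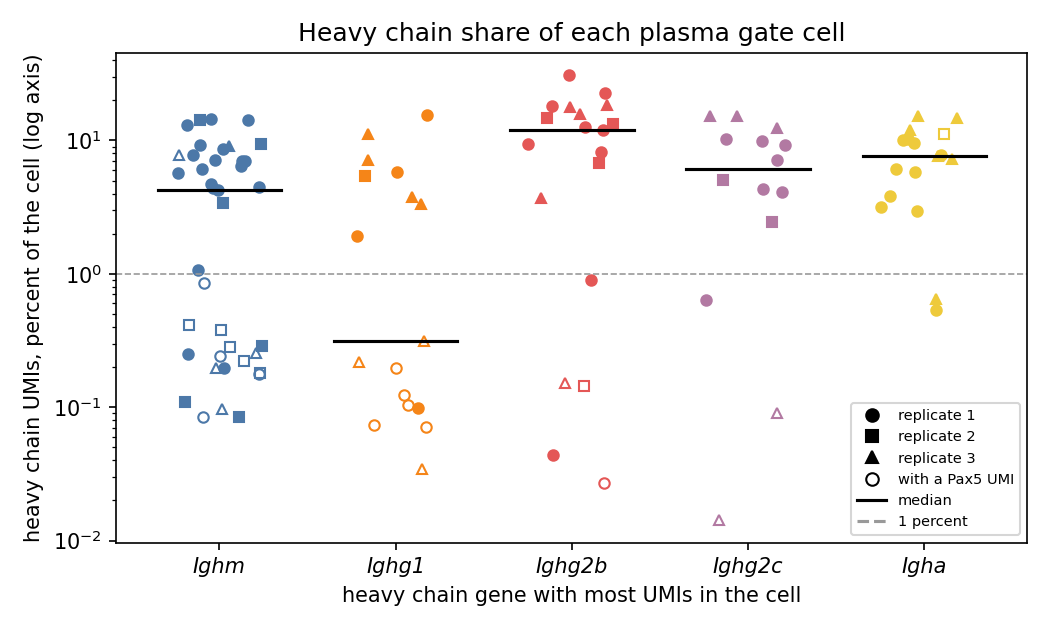
Heavy chain UMIs as a percent of each plasma gate cell (log axis), by the leading heavy chain gene, for 106 cells. Symbols mark the library, open symbols a cell with a Pax5 UMI, black bars the median and the dashed line 1%. Open symbols sit mostly under the line, and the Ighg1 median of 0.313% is the one median under it.

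Kappa was the main light chain throughout. Among cells with a light chain call, lambda cells were 3.52, 2.37 and 3.13% of IgD-positive B cells (107 of 3601 in all) and 4.11, 2.84 and 2.92% of IgD-negative B cells (38 of 1122). In the plasma gate 3 of 59, 3 of 19 and 0 of 28 cells were lambda cells. In replicate 1, 1 of these held 6361 lambda and 5782 kappa UMIs. In replicate 2, 1 held 7 lambda and 2 kappa UMIs, and another held 28 and 1. The shares of both B cell classes overlapped. Lambda RNA was not limited to lambda cells. An Iglc2 UMI was found in 72.7, 74.1 and 72.9% of IgD-positive B cells, most of them led by kappa. Lambda genes made up 14.3, 12.4 and 14.1% of the light chain UMIs of that class. Of the lambda genes, Iglc2 led 66 of 107 lambda cells in IgD-positive B cells and 17 of 38 in IgD-negative B cells, and Iglc1 led 28 and 15. In the plasma gate Iglc1 led 4 of 6. Iglc1, which is no member, stood at 16300, 23932 and 2181 CPM there, and 1 cell of replicate 2 held 10854 of 11245 UMIs.

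Light chain UMIs outnumbered heavy chain UMIs in all classes. The ratio was 4.13, 3.69 and 3.59 light chain UMIs for each heavy chain UMI in IgD-positive B cells, 5.69, 5.36 and 5.56 in IgD-negative B cells and 4.31, 3.35 and 3.22 in the plasma gate. The IgD-negative class lacks Ighd UMIs by its gate. With Ighd left out of the heavy chain sum, the ratio in IgD-positive B cells was 6.35, 5.58 and 5.56, so the gap between the B cell classes was not seen.

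The limit of 1 Ighd UMI separates the B cell classes by a single molecule. Of IgD-positive B cells, 31.7, 25.2 and 27.7% had exactly 1 Ighd UMI. Median depths of the classes were alike, at 4160, 6272 and 5705 UMIs for IgD-negative B cells. No Ighm UMI was found in 18.7, 26.4 and 34.5% of IgD-negative and in 6.51, 5.44 and 9.19% of IgD-positive B cells. Among IgD-negative B cells led by a switched gene, 86.0, 76.9 and 81.3% had no Ighm UMI. These cells were picked because another gene outnumbered Ighm, at a median of 7, 8 and 8.5 heavy chain UMIs. A low Ighm count is thus in part built into the call. Between 8.15 and 18.2% of IgD-negative B cells had no heavy chain UMI of any kind.

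The ratio of Ighm to Igkc was higher outside the B lineage than in it. The ratio of Ighm to Igkc UMIs was 0.690, 0.696 and 0.421 in T cells, and 0.713, 0.705 and 0.894 without the 1 T cell with most Igkc in each library, against 0.174, 0.197 and 0.198 in IgD-positive and 0.128 to 0.181 in IgD-negative B cells and 0.0324 to 0.109 in the plasma gate. In T cells with at least 2 Ighm UMIs, Igkc stood at 76.5, 91.4 and 77.8 CPM, and in those with none at 121, 93.0 and 71.9 CPM. T cells with a Cd4 and no Cd8b1 UMI had Ighm at 98.6, 81.1 and 76.4 CPM, and those with a Cd8b1 and no Cd4 UMI at 51.2, 48.9 and 50.9 CPM, with no overlap. Their Igkc was 96.1, 98.0 and 68.1 CPM and 103, 90.2 and 78.6 CPM. Cells of a macrophage gate (at least 3 Lyz2 and 1 Csf1r UMIs, 38, 30 and 62 cells) had Ighm at 63.1, 20.3 and 64.1 CPM and a ratio of 0.947, 0.348 and 1.27, so a high ratio was not particular to T cells. Where these molecules came from was not tested.

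Genes that act with the constant regions were taken from lists chosen with earlier results of these data known. Between the B cell classes, 4 of 14 class switching and germinal centre genes and 4 of 10 switched or memory B cell genes were higher in IgD-negative cells and none was lower, with a median log2 difference of 0.34 and 1.32 against -0.00 over all genes. Of all genes tested, 0.523% were called higher and 0.056% lower. Of the first list, the apoptosis receptor gene Fas was higher by 1.42 (SE 0.20, edgeR adjusted p = 0.0035), Rgs13 by 2.16 and Basp1 by 1.66. Of the memory genes, Cd80, a costimulatory ligand, was higher by 2.80 (SE 0.36), the transcription factor gene Zbtb32 by 2.06, the ectonucleotidase gene Nt5e (CD73) by 1.73 and Zbtb20 by 0.88. None of the 14 B identity genes and none of the 18 plasma cell and secretion genes was called. Of 6 tested immunoglobulin receptor genes, Fcer1g, the common Fc receptor chain, was higher by 1.30 (SE 0.23, edgeR adjusted p = 0.015).

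In the plasma gate, 17 of 18 plasma cell and secretion genes were higher than in IgD-negative B cells and none lower, with a median log2 difference of 3.68 against -0.08 over all genes. Of all genes tested, 15.7% were called higher and 14.8% lower. Fkbp11, a folding enzyme, was higher by 6.78 (SE 0.32), Derl3, of the degradation machinery of the endoplasmic reticulum, by 5.17 and the surface proteoglycan gene Sdc1 by 4.90. Tnfrsf17 had no UMI in IgD-negative B cells and was at least 95.4-fold higher, counted against a floor of 3 UMIs over the group. The gene of this list not called was Irf4, at -0.56 (SE 0.20, edgeR adjusted p = 0.051). Of the B identity genes 9 of 14 were lower and none higher. The log2 difference was -2.80 for Fcer2a (CD23), -2.54 for the complement receptor gene Cr2, -1.96 for the inhibitory receptor gene Cd22 and -1.76 for the transcription factor gene Ebf1.

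The germinal centre list moved in both directions, with 8 of 14 genes higher and 2 lower, against 15.7% of all genes higher and 14.8% lower. Gcsam was higher by 4.59, S1pr2 by 4.28, Mki67 by 3.82 and Mef2b by 3.20. The cells under 1% heavy chain had the higher level of these 4 genes in every library. Mki67 stood at 498, 92.2 and 253 CPM in them and at 84.7, 56.0 and 27.9 CPM in the other cells of the gate, against 22.8, 11.6 and 5.62 CPM in IgD-negative B cells. Gcsam had no UMI in the cells at or above 1% in replicates 2 and 3. Of the memory genes 4 of 10 were lower, with log2 differences of -3.63 for Fcrl5, -3.34 for Cd80, -3.33 for Pdcd1lg2 and -2.92 for Zbtb32. Of the receptors for immunoglobulin, 4 of 6 were lower. They were the inhibitory IgG receptor gene Fcgr2b (-4.05), Fcer2a (-2.80), the cytosolic antibody receptor gene Trim21 (-1.85) and Fcmr, the IgM receptor gene (-1.72). Fcer1g was higher by 2.02.

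Against IgD-positive B cells, 17 of 18 secretion genes were higher in the plasma gate and 10 of 14 B identity genes lower. Of the germinal centre genes 8 of 14 were higher and 2 lower, so the counts of these lists were similar. The memory list differed, with 2 of 10 genes higher and 2 lower, where 4 were lower against IgD-negative B cells. Cd80 (-0.54) and Zbtb32 (-0.86) were not called here. Of all genes tested, 18% were higher and 16.6% lower. The log2 difference was -2.19 for Fcmr (SE 0.33) and -4.39 for Fcgr2b. Irf4 was again not called, at 0.03 (SE 0.20). The comparisons of the plasma gate share its 3 sums, so these counts are not independent of those above. Without TMM scaling the median of all genes moved to -0.56 in both, and genes called higher and lower went from 1679 and 1586 to 933 and 3799 against IgD-negative B cells and from 1924 and 1778 to 1111 and 4024 against IgD-positive B cells. The direction of all 8 tested members was kept.

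The genes whose levels ran most like each member over the 12 sums of 3 libraries and 4 classes were also listed, among 3789 genes outside the constant regions and gates. For Ighg1, Ighg2b, Ighg2c and Igha they came from 1 small set, with Asns, an asparagine synthetase gene (Pearson r of log2 levels from 0.97 to 0.99), and Rpn1, a subunit of the oligosaccharyltransferase (0.97 to 0.99), in all 4. Ighm was nearest to Manea (0.99) and Erp44 (0.98), and Igkc to Ehd4 and Manea (0.98 each). Ighd had no close match, with Glcci1 at 0.83 and Cmah at 0.66. Ighg3 was nearest to Mcoln2 (0.94) and the germinal centre gene Rgs13 (0.92). For Ighg1, Ighg2b, Ighg2c and Igha the plasma gate sums lay far above all others, so a high r can come from that gap between classes alone. The 12 points also share libraries and mice, so these values are a description.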

How the data were processed

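For each of the 3 libraries the authors deposited raw counts, that is, UMIs per gene and cell with no normalization. The submitters' processing notes name Cell Ranger 6.0.1 and mm10. No cell annotation was used here. The 10 members, gates and gene lists were chosen with earlier results of these data known. Named genes are all members and, from each list and comparison, at most 4 called genes with the largest change. Irf4, not called between the plasma gate and either B cell class, is named as well. 1 gene of the germinal centre list is counted but not reported here by name.

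Here cells were gated by UMIs with no upper limit, and no doublets were removed from the main result. Counts were summed per library and class where at least 10 cells were present and fitted with edgeR 4.0.16 (filterByExpr, TMM, glmQLFit and glmQLFTest, R 4.3.3) over all 4 classes with library as a block, and adjusted by Benjamini-Hochberg at 0.05. Classes are paired because each library's cells were taken from 1 pool of mice. Deviations from class means correlated between classes of 1 library with r from 0.13 to 0.85 (18 pairs) and between libraries with r from -0.71 to 0.40 (36 pairs). Each class mean comes from the same 3 libraries, so positive values within libraries push those between libraries down. The gap between the 2 sets is thus in part arithmetic. CPM is UMIs of a gene scaled to a sum of 1000000. Shares have exact 95% intervals from scipy 1.17.1. The exact sign-flip test planned for switched shares cannot reach 0.05 with 3 libraries and rests in part on the gate, so no p is given. In a test on simulated counts, 200 of 10705 genes were given a log2 change of 2, and the fit recovered 88% between the B cell classes with 14 false calls, 77.5% for the plasma gate against IgD-negative B cells with 13 and 67% for the plasma gate against IgD-positive B cells with 11. Alternatives were DESeq2 1.42.0, other scalings, filters, gates and cell limits, and leaving out each library. Library totals were 33851381, 74775394 and 80806452 UMIs.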

Additional observations from a re-analysis of the deposited data

How the results depend on the processing

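Of 49 tests of single members 41 were called, and 34 of these held under every alternative run. Of 634 alternatives of these tests 612 kept direction and side of the threshold. Some of these alternatives changed cells of neither class compared, such as leaving out plasma gate cells between the B cell classes. They could act only through the shared fit and are weaker checks. With 3 libraries and 19 to 59 plasma gate cells in each, single cells and single libraries set some values, and the cause of the changes below was not tested.

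The 62 genes called between the B cell classes became 132 with DESeq2, 323 with no filter on low counts and 5 with the study's cell limits. Without the block that pairs the classes of a library (no replicate block) the count was 24. Leaving out 1 library gave 18 to 153 genes, with 153 without replicate 1, 18 without replicate 2 and 19 without replicate 3. The 3265 genes called between the plasma gate and IgD-negative B cells became 2006 to 2389, with 2006 without replicate 3, and the 4701 between IgD-negative B cells and T cells 3122 to 5120, with 3122 without replicate 2. Between IgD-positive B cells and T cells the sign turned for Ighg1 (-0.0023), Ighg2c (-0.0197) and Igha (-0.0794) with the study's cell limits and for Igha (-0.0038) without TMM factors. Ighg2c between the B cell classes was called by DESeq2 (adjusted p = 0.021) and, like Ighg3, Ighm and Iglc2, with no filter on low counts. Without TMM factors the plasma gate had 1309 genes higher and 4632 lower than T cells, against 2406 and 2393.

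The switched share of IgD-positive B cells was 0.963% with at least 10 heavy chain UMIs, 0.228% with a leading gene at 80% or more and 0.242% with the study's cell limits. That of IgD-negative B cells was 28.8% with at least 5 and 38.7% with at least 10 heavy chain UMIs, and 11.4% with the study's cell limits. In T cells it was 27.0% from 1 UMI, 1.58% with at least 5 and 7.31% with the background taken off. The Ighg2b share of the plasma gate was 21.9% without cells with a Pax5 UMI, an alternative chosen after seeing the data, as was limiting T cells to at most 2 Jchain UMIs. The study's cell limits left 0, 0 and 1 plasma gate cells, so no plasma gate value was computed with them.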

Other observations

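IgD-negative B cells led by a switched heavy chain gene (43, 65 and 48 cells in replicates 1, 2 and 3) were also set against those led by Ighm (307, 190 and 147 cells), a comparison chosen after seeing the data. Of 6254 genes tested with edgeR and the library as a block, 123 (1.97%) were higher and 67 (1.07%) lower in the switched cells, and 28 and 8 without the block. Heavy chain genes, on which the cells were divided, were not taken out before counting. Median UMIs per cell were 5740, 8002 and 6772.5 in switched cells and 4459, 6005.5 and 5502 in IgM cells, and the part of this depth gap in the calls was not tested. Of 7 tested memory genes 4 were higher and none lower. Cd80 stood at 34.2, 63.9 and 110.6 CPM against 11.9, 7.61 and 13.8 CPM, a log2 difference of 2.55 (SE 0.33, edgeR adjusted p = 0.0017, and 0.016 without the block). Nt5e was higher by 1.53, Zbtb32 by 1.43 and Zbtb20 by 0.87, and none of these 3 was called without the block. Of 11 germinal centre genes Fas (2.42) and Basp1 (2.13) were higher, and Basp1 was not called without the block (adjusted p = 0.098). Of 14 B identity genes 4 were lower, with -1.94 for Cr2, -1.59 for Fcer2a, -0.87 for Fcmr and -0.45 for Ebf1, and none was called without the block.

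Genes outside these lists with large differences, named after their values were seen, included Apoc2 (3.87), Slpi (3.69) and the chemokine receptor gene Cxcr3 (3.07), higher in switched cells, and Crisp3 (-5.08) and Rasgef1b (-3.91), lower. Cxcr3 stood at 21.8, 21.3 and 44.2 CPM against 5.68, 2.28 and 0.987 CPM, with no overlap. The inflammatory cytokine gene Il1b stood at 18.7, 10.7 and 51.6 CPM in switched and 49.97, 99.6 and 401 CPM in IgM cells (-2.77, SE 0.27, edgeR adjusted p = 0.00016, and 0.23 without the block). The macrophage gene Lyz2 stood at 0, 7.10 and 351 CPM in switched cells and at 0.568 to 2.96 CPM in IgM cells, so replicate 3 stood apart, and its part in these calls was not tested.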
